A study of Mus musculus with 22 samples.

Results

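The genes described here encode receptor subunits for the transmitters glutamate, GABA, glycine, acetylcholine and ATP. They were taken by symbol from the array's annotation: every gene whose symbol starts with Gria, Grin1, Grin2, Grin3, Grik, Grm and a digit, Gabra, Gabrb, Gabrg, Gabrr, Gabbr, Glra, Glrb, Chrna, Chrnb or P2rx. The rule found 57 of the 18194 genes measured, and no difference between cells entered it. These genes carried 120 probe sets, and 37 of them had more than 1. The probe set with the highest mean log2 signal over all cells stood for each gene. The set holds ion channels and also the metabotropic glutamate receptors and Gabbr1, which act through G proteins rather than a pore of their own.

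The data are array profiles of 22 mouse retinal cells, each amplified and hybridised alone. The 3 photoreceptors were 2 cells of P0, the day of birth, named H1 and E1, and 1 adult rod. The 13 ganglion cells were 3 of embryonic day E12.5 (E4, F3 and F6), 1 of E13.5 (A3), 2 of E14.5 (D8 and E1), 3 of E15.5 (B1, B5 and C7) and 4 of P0 (A3, C6, A6 and F1). The 6 amacrine cells were 1 of E16.5 (J6) and 5 of P0 (A4, D1, F6, G3 and B1). The labels give the strain CD1 for 9 cells and no strain for the other 13. They name no genotype, treatment, animal or litter. Cell types were assigned by the study after profiling. In the 13 ganglion cells 7 to 11 of 12 ganglion markers were detected, against 0 to 4 in the 6 amacrine cells. Amacrine markers numbered 4 to 7 of 12 in amacrine cells, and photoreceptor markers 7 to 10 of 10 in photoreceptors.

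Fast transmission runs through channels built of several subunits. AMPA (Gria), kainate (Grik) and NMDA (Grin) receptors open to glutamate, GABA-A receptors (Gabra, Gabrb, Gabrg and the rho subunits Gabrr) and glycine receptors (Glra, Glrb) pass chloride, nicotinic receptors (Chrna, Chrnb) open to acetylcholine, and P2X receptors (P2rx) to ATP. Amacrine cells release GABA or glycine, and the starburst type also releases acetylcholine, which drives waves of activity across the retina around birth through nicotinic receptors of ganglion and amacrine cells. Photoreceptors and bipolar cells release glutamate.

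Signals are linear array intensities after scaling each array to a 2% trimmed mean of 500, and a gene at 1000 or more is called detected in that cell. By this measure 35 of the 57 subunit genes were detected in at least 1 cell. Over all 18194 genes the number was 10989, a similar share. Of the 35 subunits, 13 were detected in 1 cell, 4 in 2 cells and 18 in at least 3 cells. The last count is 31.6% of the members, against 39.5% of all 18194 genes. The 22 subunits detected nowhere were Chrna1, Chrna9, Chrnb1, Chrnb3, Gabra3, Gabra5, Gabra6, Gabrb1, Gabrg1, Gabrg3, Glra1, Glra3, Glra4, Grik1, Grik3, Grin2a, Grin3b, Grm5 and the P2X genes P2rx4, P2rx5, P2rx6 and P2rx7. Of all 18194 genes, 7205 were detected nowhere, so the members were close to the background. The signals of the 22 subunits reached at most 889.1, for Grm5 in the adult rod. A signal under 1000 says that the transcript was not detectable on this array, not that it was absent.

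A single cell held few of these subunits at a time. Photoreceptors held 1, 3 and 11 of them (E1, H1 and the rod). Ganglion cells held 1 to 12 with a median of 6, and amacrine cells 3 to 10 with a median of 7.5. The lowest ganglion cell by the chosen probe sets was D8 of E14.5, with Gabbr1, and the highest was F1 of P0. In D8 another probe set of Chrna5 was at 2013. The groups overlapped throughout. All genes detected per cell ran from 1518 to 4352 with a median of 2996.5. The adult rod and amacrine cell J6 stood apart, with median signals over all probe sets of 192.1 and 197.7, against at most 79.1 in any other cell. In them 34 and 35 of the 57 members lay above the floor of 200 that was set before taking log2, against 5 to 20 in the other cells. The array of P0 amacrine cell B1 was deposited on a lower scale, its trimmed mean being 18.1, and was scaled up by a factor of 27.6. In the table's 1254 pairs of member and cell, 134 were detections by the chosen probe set and 146 by any probe set of the gene. Of the 23 detected members with several probe sets, 9 had no second probe set at 1000 in any of the same cells. Signals and detections below are those of the chosen probe set unless another is named.

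**Figure D1:**
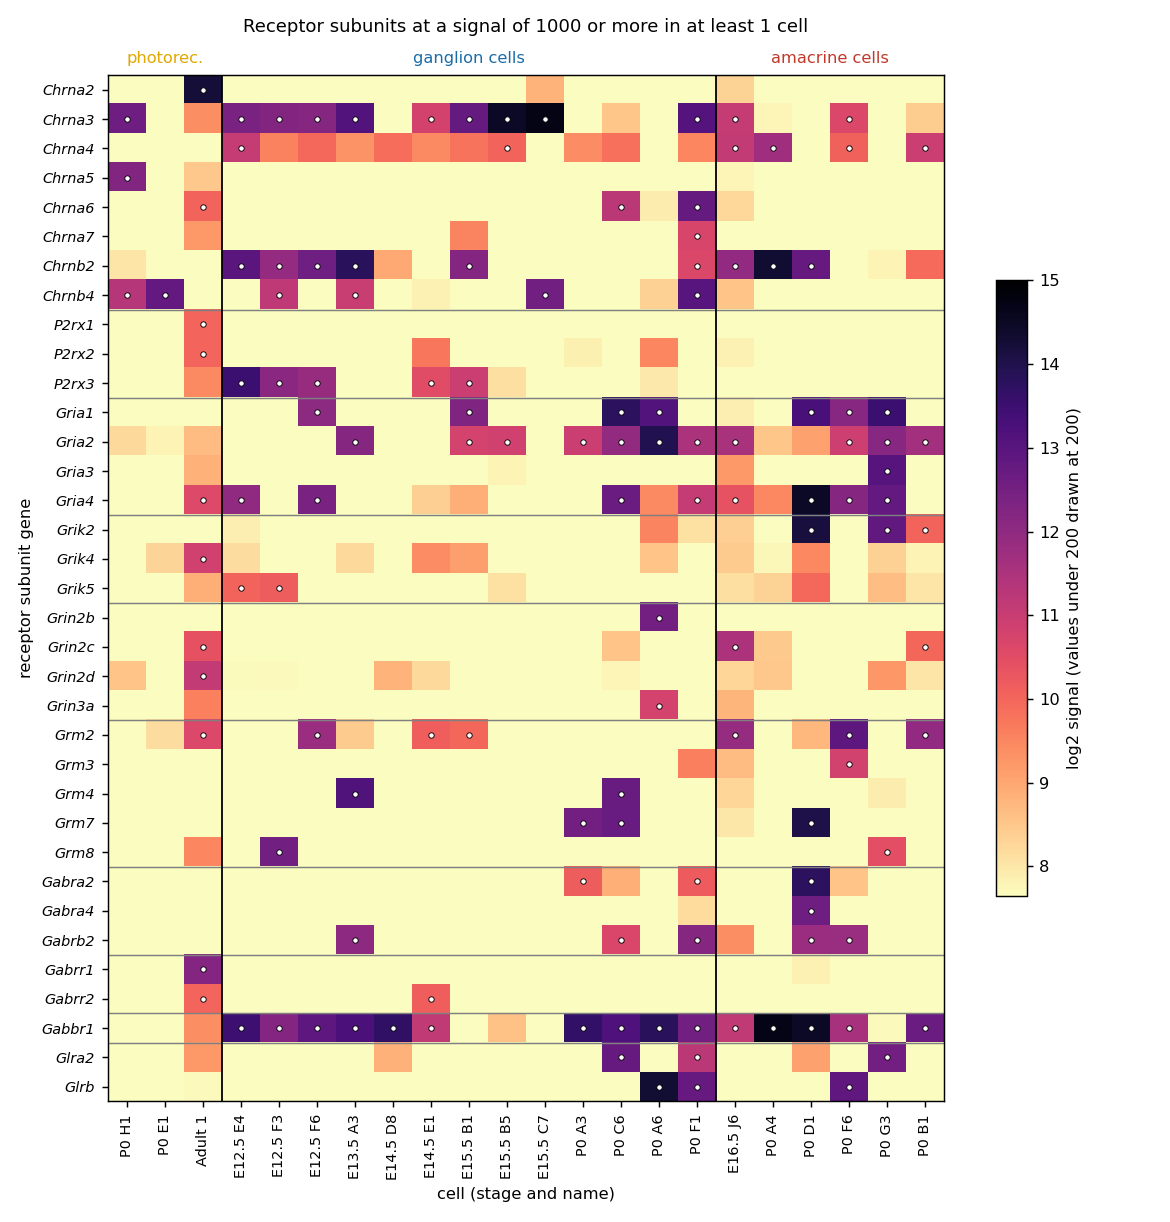
Log2 signal of the 35 receptor subunits detected in at least 1 cell (rows, grouped by receptor family) in each of the 22 cells (columns: photoreceptors, ganglion cells by stage, amacrine cells by stage), with values under 200 drawn at 200 and a white dot where the signal is 1000 or more. Chrna3 and Gabbr1 fill most ganglion columns, Gria2 fills all 4 P0 ganglion columns, and most other subunits appear in few cells.

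The nicotinic family had the most members, 12, of which 8 were detected. Of these, Chrna5, Chrna3 and Chrnb4 sit side by side on chromosome 9, in that order, and encode subunits of the nicotinic receptors known from autonomic ganglia. Their start regions are shown for Chrna3 and Chrnb4, detected together in 5 cells, and for Chrnb2, a beta subunit from chromosome 3 that was detected with Chrna3 in 7 cells. The sequences are those of RefSeq on GRCm38.p6, 250 bases before to 50 after the start, each read on the minus strand. Capitals mark the letters GGGCGG (or CCGCCC on the other strand), the core of Sp1 sites, and CAGCTG, an E-box.
Chrna3 (chr9:55026513-55026812): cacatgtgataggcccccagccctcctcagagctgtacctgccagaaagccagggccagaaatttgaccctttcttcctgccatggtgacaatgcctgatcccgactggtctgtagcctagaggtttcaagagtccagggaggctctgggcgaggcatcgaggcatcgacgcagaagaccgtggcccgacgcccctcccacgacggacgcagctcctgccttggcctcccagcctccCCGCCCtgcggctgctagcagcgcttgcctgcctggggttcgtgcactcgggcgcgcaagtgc
Chrnb4 (chr9:55048495-55048794): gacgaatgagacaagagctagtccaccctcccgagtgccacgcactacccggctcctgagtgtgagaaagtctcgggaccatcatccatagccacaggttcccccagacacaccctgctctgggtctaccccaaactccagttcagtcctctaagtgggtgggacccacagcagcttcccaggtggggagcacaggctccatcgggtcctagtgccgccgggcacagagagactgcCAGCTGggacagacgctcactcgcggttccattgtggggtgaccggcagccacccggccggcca
Chrnb2 (chr3:89764583-89764882): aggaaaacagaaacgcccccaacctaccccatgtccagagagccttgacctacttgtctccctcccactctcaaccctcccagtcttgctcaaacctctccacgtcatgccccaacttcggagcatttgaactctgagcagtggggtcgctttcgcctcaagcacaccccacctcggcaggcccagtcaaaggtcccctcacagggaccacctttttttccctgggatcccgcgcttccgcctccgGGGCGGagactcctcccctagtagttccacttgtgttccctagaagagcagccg

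Both strands were searched. GGGCGG was found in the Chrna3 window, 13 bases before the start, and in the Chrnb2 window, 4 bases before it. CAGCTG was found in the Chrnb4 window, 14 bases before the start. The letters CCCNNGGG, the core bound by EBF factors, and the E-box CAGATG matched in none of these windows. None of the motifs overlapped another. Among all 32851 windows of this length, 35.7% held GGGCGG, 16.3% CAGCTG, 17.2% CAGATG and 13.7% CCCNNGGG. GC content was 64.3% for Chrna3, 63.0% for Chrnb4 and 59.0% for Chrnb2, against a median of 52.7%. These matches describe the letters and are no evidence of binding.

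Chrna3 (probe set 1455931_at), an alpha subunit known from autonomic ganglia, was the nicotinic gene detected in most ganglion cells, 9 of 13. Its signal was 5445, 4780 and 4639 in the E12.5 cells, 8675 at E13.5, 65.6 and 1767 at E14.5, 6959, 22473 and 26421 at E15.5, and 82.9, 368, 56.5 and 8530 at P0 (A3, C6, A6 and F1). By this probe set every cell of E12.5, E13.5 and E15.5 was high, and of the P0 cells F1 was. Among amacrine cells J6 was at 2135 and F6 at 1596, with the other 4 between 19.7 and 339. A further probe set of the gene was at 1000 or more in 9 of the same 12 cells, and the third in none. The further one was at 232 in C7 of E15.5, and passed 1000 in P0 ganglion cell C6 (1177) and P0 photoreceptor E1 (1165), where the chosen one did not.

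Chrnb2 (1436428_at), the beta subunit that retinal waves are known to require, was at 7832, 3881 and 6078 in the E12.5 ganglion cells and 14432 in that of E13.5. It was at 507 and 106 at E14.5, at 4740, 199 and 151 at E15.5, and at 150, 18.9, 15.4 and 1594 at P0. The cells up to E13.5 were all high, and 2 of the 9 later ganglion cells were. Among amacrine cells it was 4045 in J6, 20476 in A4 and 6802 in D1, and 16.0 to 976 in the other 3. The other probe sets of Chrnb2 reached 1000 in 1 and 2 of these 9 cells, so the pattern rests mainly on 1 probe set. One of them also passed 1000 in ganglion cell C7 of E15.5 (3762) and in the adult rod (1833).

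Chrnb4 (1457008_at), a beta subunit known from autonomic ganglia, was detected in 4 ganglion cells: F3 of E12.5 (2276), A3 of E13.5 (2018), C7 of E15.5 (5973) and F1 of P0 (8141). Each of these also held Chrna3. The amacrine cells were between 3.80 and 372. The other ganglion cells were at 325 or less. By its further probe set Chrnb4 was at 1966 in F3 and 4432 in F1, but at 19.1 in A3 of E13.5 and 53.0 in C7. The probe sets thus disagree on A3 of E13.5 and C7. In those cells Chrnb4, and so its pairing with Chrna3, rests on the chosen probe set alone.

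Chrna4 (1456354_at), an alpha subunit that partners with Chrnb2 in the brain, lay near the threshold in most ganglion cells, from 14.6 to 2119 with a median of 748.5. It passed 1000 in E4 of E12.5 and B5 of E15.5. In amacrine cells it was 2143 in J6, 3382 in A4, 1085 in F6 and 1949 in B1, against 21.9 in D1 and 3.57 in G3. A second probe set was at 1000 or more in 5 of these 6 cells, but at 5.78 in E4, and at 4373 in F3 of E12.5, so the probe sets disagree on the E12.5 cell with the gene. Chrna4 and Chrnb2 were detected together in 1 ganglion cell, E4, and 2 amacrine cells.

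Chrna6 (1450427_at), an alpha subunit known from retinal projections and dopamine neurons, was at 2371 in C6 and 7047 in F1 of P0, and at 12.7 and 242 in the other P0 ganglion cells. It stayed at or below 199 in the 9 embryonic ganglion cells and reached 298 at most in amacrine cells. The other probe set of Chrna6 passed 1000 in F1 alone (1602) and was at 141 in C6, so the probe sets disagree on C6. Chrna7, the subunit of receptors made of a single alpha type, passed 1000 in 1 cell, P0 ganglion cell F1 (1681). A nicotinic alpha and a nicotinic beta subunit were detected together in 7 of 13 ganglion cells and 2 of 6 amacrine cells.

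P2rx3 (1458396_at, chromosome 2), the ATP-gated channel of sensory neurons, followed the early ganglion cells. Its signal was 11863, 4376 and 3714 in the E12.5 cells, 82.7 at E13.5, 34.4 and 1479 at E14.5, 1990, 279 and 107 at E15.5, and 2.66, 8.25, 253 and 31.2 at P0. All 3 cells of E12.5 were high and all 4 of P0 were low. The amacrine cells ranged from 14.5 to 122. All 5 ganglion cells with P2rx3 also held Chrna3, which was detected in 9 of the 13. The other 2 probe sets of P2rx3 never reached 1000, so this pattern too rests on 1 probe set.

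Among AMPA receptor subunits, at least 1 of the 4 was detected in 9 of 13 ganglion cells and 5 of 6 amacrine cells. Gria2 (1421970_a_at, chromosome 3), the subunit that makes the channel impermeable to calcium, was at 98.7, 89.2 and 9.19 at E12.5, 4583 at E13.5, 149 and 8.19 at E14.5, 1733, 1836 and 53.4 at E15.5, and 2012, 3921, 15716 and 2904 at P0. It was high in all 4 P0 ganglion cells and in 3 of 9 embryonic ones. In amacrine cells it was 2997 in J6, 369 in A4, 549 in D1, 1928 in F6, 4474 in G3 and 3203 in B1. The other 2 probe sets of Gria2 were at 1000 or more in 5 and 3 of these 11 cells. They also passed 1000 in 2 cells where the chosen one did not, at 2937 in ganglion cell E4 of E12.5 and 1244 in amacrine cell D1.

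Gria1 (1435239_at), the subunit best known for synaptic plasticity, was detected in 4 of 13 ganglion cells, F6 of E12.5 (4232), B1 of E15.5 (5019) and C6 and A6 of P0 (14156 and 8705). The other P0 ganglion cells were at 73.1 and 21.9. Amacrine signals were 9803 in D1, 4559 in F6 and 11724 in G3, against 11.3 to 236 in the other 3. Gria4 (1435722_at), a subunit of fast channels, was at 6477 in C6 and 2118 in F1 among P0 ganglion cells, and at 4124 and 5264 in E4 and F6 of E12.5. Among amacrine cells it was 22597 in D1, 7071 in G3, 4611 in F6, 1312 in J6, 714 in A4 and 137 in B1. Gria3 was detected in 1 of the 22 cells, P0 amacrine cell G3 (8361), where its other probe set was at 27480.

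Kainate and NMDA receptor subunits were rarely detected. Grik2 (1457683_at, chromosome 10), a kainate receptor subunit, was at 18164 in D1, 7263 in G3 and 1064 in B1 among P0 amacrine cells, and at 2.60 and 51.8 in A4 and F6. It was detected in 0 of 13 ganglion cells, with a range of 1.35 to 730. Its other probe set was under 1000 in those 3 cells and passed 1000 in P0 ganglion cell F1, at 1299, so the 2 probe sets disagree. Grik5, a subunit that needs a partner, passed 1000 in 2 ganglion cells of E12.5 (1048 and 1150).

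Of the NMDA receptor subunits, Grin2b, the subunit of immature synapses, was at 5855 and Grin3a, an inhibitory subunit, at 1745 in P0 ganglion cell A6, and neither was detected elsewhere by its chosen probe set. Another probe set of Grin2b was at 1233 in F1 of P0. Grin2c (1449245_at), known mainly from the cerebellum, was at 2869 in amacrine cell J6 and 1010 in B1, and at 376.7 or less in all ganglion cells.

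The metabotropic glutamate receptors differed from cell to cell. Grm2 (1435607_at), which damps transmitter release, was detected in 3 of 13 ganglion cells, all embryonic: F6 of E12.5 (3551), E1 of E14.5 (1124) and B1 of E15.5 (1007). At P0 the ganglion cells were at 23.8, 162, 110 and 201. Amacrine signals were 3773 in J6, 7672 in F6 and 4021 in B1, against 184, 432 and 69.6 in A4, D1 and G3.

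The amacrine cells with Grm2 were those with Slc18a3, the vesicular acetylcholine transporter. Slc18a3 was at 5272 in J6, 7585 in F6 and 2827 in B1, against 14.4 to 40.6 in A4, D1 and G3. Among the subunit genes Grm2 alone was detected in all 3 cells with Slc18a3 and in none of the 3 without it. Of all 18194 genes, 192 (1.06%) had this split. As background, Grm2 is a known gene of starburst amacrine cells in the mouse. Chat, the enzyme that makes acetylcholine, was detected in B1 alone (15049). The split was chosen after the values were seen, and cells are not replicates, so it has no test.

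Grm7 (1443119_at), a presynaptic receptor, was at 5832 and 6757 in P0 ganglion cells A3 and C6 and at 16969 in P0 amacrine cell D1. It was at 254 or less in the other cells. Grm4 was detected in ganglion cells A3 of E13.5 (9142) and C6 of P0 (6569), and Grm8 in ganglion cell F3 of E12.5 (6024) and amacrine cell G3 (1407). Grm3 passed 1000 in amacrine cell F6 (1810). These receptors and the other subunits found in 1 or 2 cells fall outside the rule for named genes and were chosen after their values were seen.

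Gabbr1 (1455021_at, chromosome 17), a subunit of the GABA-B receptor, was the member detected in the most cells, 15 of 22. In ganglion cells its signal was 11527, 4706 and 7656 at E12.5, 9602 at E13.5, 13336 and 2238 at E14.5, 183, 383 and 79.5 at E15.5, and 12958, 9280, 14296 and 5974 at P0. The 3 cells of E15.5 were low and the other 10 were high. The amacrine cells were at 2263 in J6, 26176 in A4, 22551 in D1, 3026 in F6, 209 in G3 and 6500 in B1. A second probe set was at 1000 or more in 10 of these 15 cells, and the other 2 in none.

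The E15.5 cells also carried blood transcripts. Hbb-y, an embryonic globin, was at 135822, 57894 and 112958 in them and at 23727 and 14516 in the cells of E14.5, against 336.9 at most in the other ganglion cells. Of the 8 blood, immune and vascular markers, 2 were detected in each E15.5 cell and 3 and 2 in the E14.5 cells, against 0 in the other ganglion cells. Cx3cr1, Aif1 and C1qa, the immune markers, were detected in no ganglion cell. The mean log2 signal of the list was 9.25 to 9.59 at E15.5 and 8.94 to 9.46 at E14.5, against 7.64 to 7.81 in the rest. The E15.5 cells had 2476, 2466 and 1518 genes detected. In the E14.5 cells 2 and 3 of 4 lens markers and 4 and 6 of 8 progenitor markers were detected. The E13.5 cell held 1 lens marker, Cryaa (5861). Mean log2 signals of the lens list were 9.39 at E13.5 and 11.83 and 12.58 at E14.5, against at most 7.82 in the other ganglion cells. Among amacrine cells, D1 held 3 of 8 progenitor markers: Ccnd1 (24917), Fgf15 (11958) and Top2a (11507). Its mean log2 signal of that list was 10.05, against 7.77 to 9.46 in the other amacrine cells. D1 also held 2 of 7 glial markers, Slc1a3 (5856) and Glul (2154), and 1 of 6 bipolar markers, Prkca (32609). Slc1a3 and Prkca were detected in no other amacrine cell, while Glul was detected in 5 of 6. Of 12 amacrine markers D1 held 4. The part of all these in the subunit values was not tested.

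The GABA-A subunits were sparse. Gabrb2 (1428203_at), a beta subunit, was at 4131 in the E13.5 ganglion cell and at 1651 and 4564 in C6 and F1 of P0. Of the amacrine cells, D1 was at 3571 and F6 at 3660. Gabra2 (1455444_at), an alpha subunit, was at 1134 and 1158 in P0 ganglion cells A3 and F1 and at 13979 in P0 amacrine cell D1, which also held Gabra4 (6266). An alpha and a beta subunit were detected together in F1 and D1, and in amacrine cell F6 by another probe set of Gabra2, at 1809. Of the rho subunits, which form channels known from bipolar cells, Gabrr2 passed 1000 in ganglion cell E1 of E14.5 (1127).

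Glycine receptor subunits were detected in ganglion cells at P0. Glrb (1422504_at), the beta subunit that anchors the receptor at synapses, was at 20038 in A6 and 6903 in F1, and at 18.8 and 2.37 in A3 and C6. Embryonic ganglion cells were between 0.703 and 40.2. Among amacrine cells it was at 7385 in F6 and at 114 or less in the rest. A further Glrb probe set was at 1000 or more in the same 3 cells. Glra2 (1434098_at), the alpha subunit of immature receptors, was at 6922 in C6 and 2403 in F1 of P0, and at 460 or less in embryonic ganglion cells. Amacrine cell G3 was at 5816 and the others at 551 or less. Only F1 held both subunits.

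Across ganglion development, 23 of the 57 members were detected in at least 1 ganglion cell. Of these, 8 were found at P0 and in no embryonic cell: Chrna6, Chrna7, Gabra2, Glra2, Glrb, Grin2b, Grin3a and Grm7. They make up 34.8% of the 23, and among the 9086 genes detected in ganglion cells the share was 10.2%. Conversely 6 were found in embryonic cells only, Chrna4, Gabrr2, Grik5, Grm2, Grm8 and P2rx3, or 26.1% against 27.6% of all genes. The remaining 9 were found at both ages. Of the P0 group, 5 were detected in at least 2 of the 4 P0 cells, or 21.7% against 2.51% of all genes. With 4 P0 and 9 embryonic cells these are counts without a test.

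**Figure D2:**
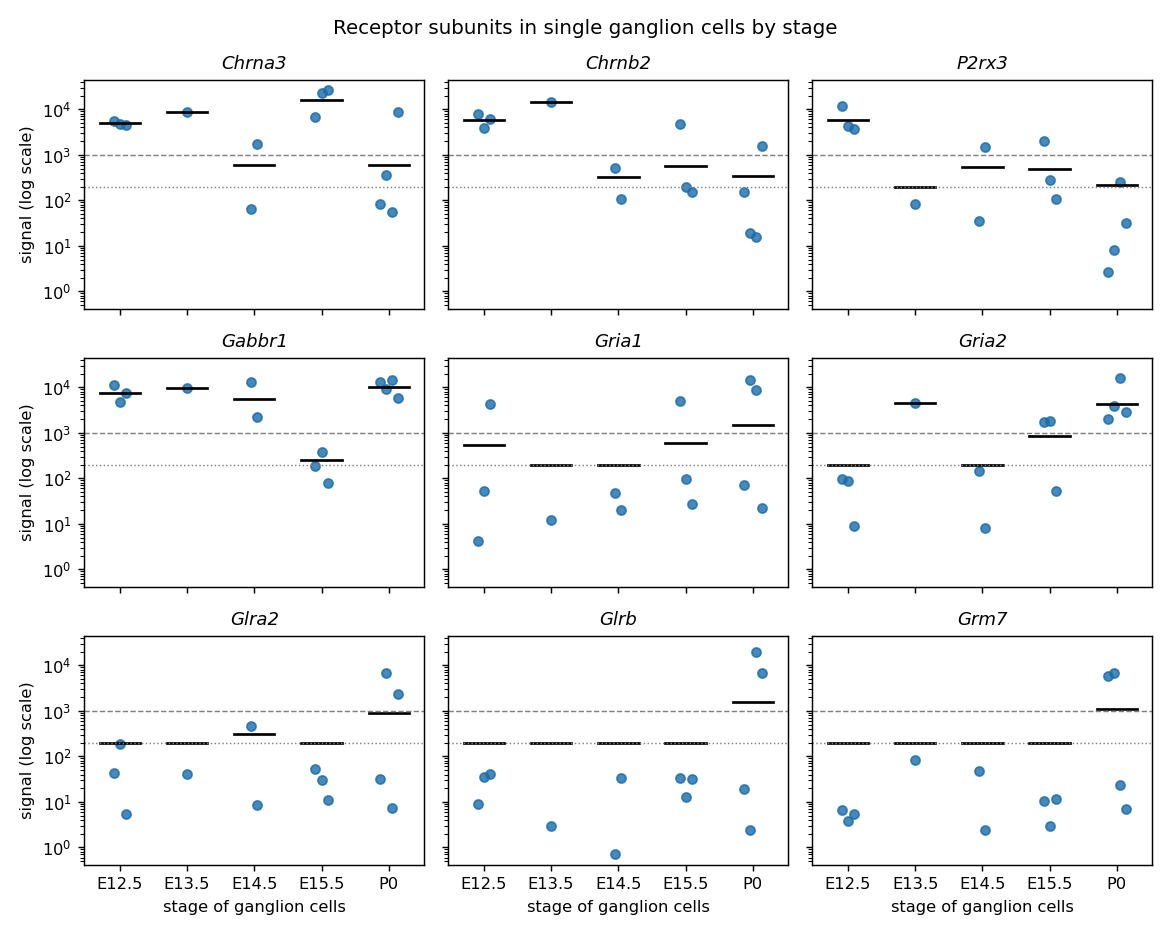
Signal of 9 receptor subunits in single ganglion cells (log axis) by stage, 1 point per cell, with bars at the mean of log2 signals raised to the floor of 200 (dotted line) and a dashed line at the detection threshold of 1000. P2rx3 and Chrnb2 are high in all 3 cells of E12.5, and Glra2, Glrb and Grm7 pass the threshold in 2 of the 4 P0 cells and in no embryonic cell.

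A linear slope over the 5 ganglion stages, in log2 per stage step, asked which subunits shifted with age. For the tests, log2 signals were averaged into 9 type-and-stage samples, since cells of a sample may share an animal. The labels do not say that the samples came from separate animals, so p-values rest only on spread between these samples. In limma that spread was a trend over all tested genes, not each gene's own. In limma no gene passed an adjusted p of 0.05 among the 7184 tested (0%), and hence 0 of the 18 tested members did. At an unadjusted p under 0.05 there were 1 higher and 2 lower members, and 144 genes in all (2%). The model with gene-wise variances called 0 members and 0 of all genes, with 1 member and 201 genes at an unadjusted p under 0.05. The median slope was -0.00 for the members and -0.00 for all tested genes.

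Toward later stages Chrnb2 had a slope of -1.28 ± 0.55 (SE; unadjusted p = 0.0207 and adjusted p = 1 in limma) and stage means of 12.48, 13.82, 8.32, 9.17 and 8.39 on the log2 scale. P2rx3 was at -0.83 ± 0.41, with means of 12.50, 7.64, 9.09, 8.91 and 7.73. It reached the 3 cells needed for a test through embryonic ganglion cells alone. Slopes were -0.52 for Chrna3, -0.44 for Gabbr1, -0.28 for Grm2 and -0.23 for Chrna4. The Grm2 slope was -0.0014 without F6 of E12.5, and that of Chrna4 was -0.14 without E4 of E12.5 and -0.13 without A6 of P0. In the other direction Gria2 was at 0.65 ± 0.54, Glrb at 0.59 ± 0.25 (unadjusted p = 0.0207 and adjusted p = 1 in limma), Grm7 at 0.50, Chrna6 at 0.45, Gria1 at 0.44 and Glra2 at 0.44. Glrb, Grm7 and Chrna6 were at the floor of 7.64 at every embryonic stage, with P0 means of 10.58, 10.13 and 9.89. Their slopes thus rest on P0 alone. Each of them, and Glra2, reached the 3 cells needed for a test only with 2 P0 ganglion cells. This entry favoured a rise, so the Glrb p-value is no support for one. The Gria2 slope was 1.07 without the E13.5 cell. That of Gria1 was 0.73 without F6 of E12.5, 0.29 without B1 of E15.5, and 0.22 and 0.27 without C6 and A6 of P0. For Gabbr1 the P0 mean minus the mean of the embryonic stages was 1.68, against the sign of its slope.

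At P0, the only stage with cells of every type, the 4 ganglion cells were set against the 5 amacrine cells. With 1 sample against 1 there is no test, and differences past 2 on the log2 scale (a fold of 4) were counted. Of the 18 members, 1 was higher in ganglion cells by 2 or more, against 10.8% of all tested genes. It was Chrna6, at 2.24, with mean log2 signals of 9.89 in ganglion cells and the floor of 7.64 in amacrine cells. Chrna6 entered the tested genes only through 2 of these ganglion cells and the rod, which favours this direction. Lower by 2 or more were 3 members, against 4.69% of all genes: Grik2 (8.22 in ganglion and 10.46 in amacrine cells), Grm2 (7.65 and 9.78) and Chrnb2 (8.39 and 10.49). Grik2 entered the tested genes only through 3 P0 amacrine cells, which favours this direction. The members' median was 0.19, against 0.23 for all genes.

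Short of that size, Glrb was at 1.90, Gria2 at 1.63, Chrnb4 at 1.51, Grm7 at 1.20 and Gabbr1 at 1.08. Gria2 was detected in 4 of 4 ganglion cells but 3 of 5 amacrine cells, and Gabbr1 in 4 of 4 and 4 of 5. On the other side lay Gria4 at -1.11, Chrna4 at -0.50 and Grin2c at -0.40. With values under the floor taken as tied, the cells of the 2 types overlapped in signal for every gene named in this comparison. The count of higher members was 3 without ganglion cell A3, 2 without C6, A6 or amacrine cell G3, and the count of lower ones was 1 without amacrine cell D1. With a cell left out, genes then detected in fewer than 3 cells left the tested genes. Among them were Glrb without amacrine cell F6, and Grm7 and Grik2 without D1.

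**Figure D3:**
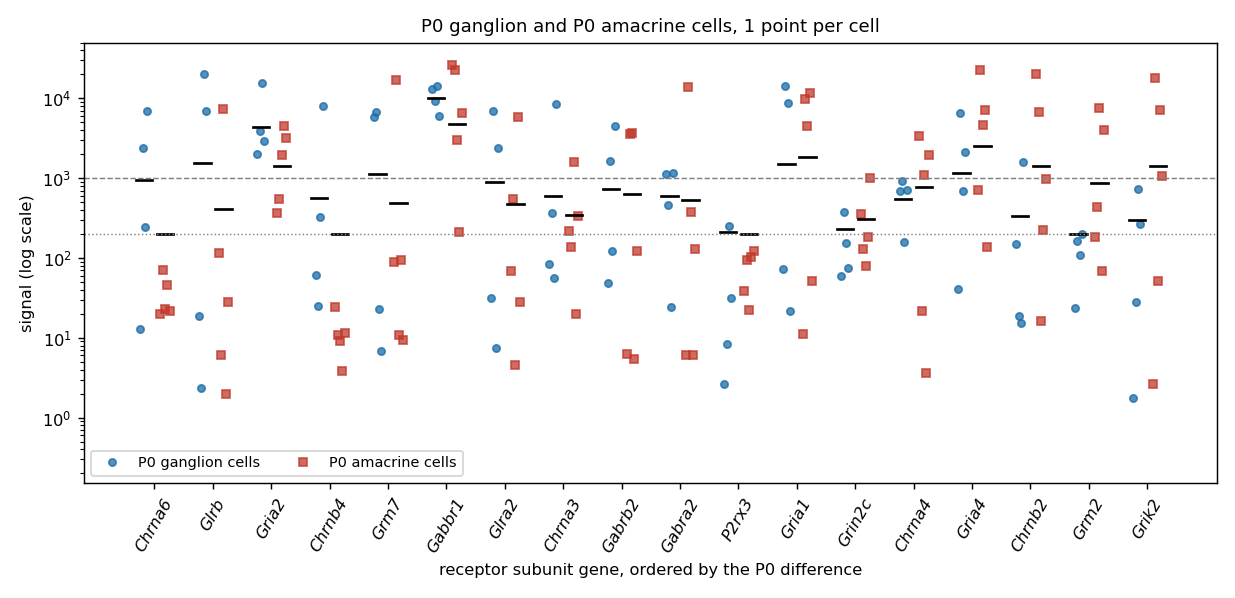
Signal of the 18 tested receptor subunits (log axis) in the 4 P0 ganglion cells (blue circles) and the 5 P0 amacrine cells (red squares), with bars at the mean of log2 signals raised to the floor of 200 (dotted line) and a dashed line at the detection threshold of 1000. Chrna6, at the left end, has 2 ganglion cells above 1000 and no P0 amacrine cell above 71.3, and Grik2, at the right end, has 3 amacrine cells and no ganglion cell above 1000.

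Over all stages, ganglion cells (5 samples) were compared with amacrine cells (2 samples). In limma 5 of 7184 genes passed (0.0696%), and 0 of the 18 members did. At an unadjusted p under 0.05, 2 members were lower in ganglion cells and 0 higher, and 283 genes passed in all (3.94%). The model with gene-wise variances called 0 members and 8 of all genes, with 2 members and 353 genes at an unadjusted p under 0.05. The members' median difference was -0.42 log2, against -0.06 over all genes.

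Largest on the ganglion side were Chrna3 at 1.81 ± 1.47 (SE; mean log2 11.55 in ganglion and 9.74 in amacrine cells), P2rx3 at 1.53 ± 1.05 and Chrnb4 at 1.10 ± 1.25. Gabbr1 at 0.27 and Chrna6 at 0.16 changed sign with the processing. Gabbr1, and Glrb at 0.07, changed sign when some cells were left out. Largest on the amacrine side were Grm2 at -2.35 ± 1.28 (8.48 in ganglion and 10.83 in amacrine cells), Grin2c at -2.19 ± 0.91 (unadjusted p = 0.0157 in limma), Gria4 at -1.92 ± 1.33 and Grik2 at -1.65 ± 0.68 (unadjusted p = 0.0162 in limma). Gria2 was at -1.15 and Chrna4 at -0.85, and the adjusted p was 0.999 for every member. For Gria2 the sign was opposite to that within P0. Genes were tested if detected in at least 3 cells. Grik2 was detected in 3 amacrine cells alone, Grin2c in 2 amacrine cells and the rod, and P2rx3 in 5 ganglion cells alone. Their entry into the test favoured the direction found, so their p-values are no support for it. Amacrine cell J6 is a sample of its own here, and without it Chrna3 was at 3.13, Grm2 at -1.30, Grik2 at -2.69, Gria2 at -0.61 and Chrna4 at -0.12, and Grin2c, left with 2 cells at the threshold, was not tested. Without ganglion cell A3 of E13.5, also a sample of its own, Chrnb4 was at 0.65 and Gria2 at -1.73.

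The 3 photoreceptors held 14 members in all, but P0 photoreceptors H1 and E1 held only nicotinic ones. Chrnb4 was at 160 in the rod, and at 2592 in H1 and 7106 in E1. H1 also held Chrna3 (6158) and Chrna5 (4925), the neighbours of Chrnb4 on chromosome 9, and was the single cell of the series with Chrna5 by its chosen probe set. In ganglion and amacrine cells that probe set was at 218 or less, while the other was at 2013 in ganglion cell D8 and under 1000 in H1. H1 held 3 of 7 glial and 3 of 8 progenitor markers, with mean log2 signals of 10.00 and 9.78, and E1 held 0 of each, at 7.64 and 7.66. Of 6 bipolar markers E1 held 2, Pcp2 (30957) and Cabp5 (9000), with a mean log2 signal of 9.77, and H1 held 0, at 7.64. Their part in the subunit values of these cells was not tested.

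The adult rod held 11 members, 6 of them (54.5%) in no other cell, against 37.4% of the 2512 genes detected in the rod: Chrna2 (19269), Gabrr1 (4676), Grin2d (2159), Grik4 (1837), P2rx1 (1036) and P2rx2 (1026). Gabrr1, a rho subunit, and Chrna2, a nicotinic alpha subunit, reached at most 227 and 452 in all other cells. The others were Chrna6 (1060), Gabrr2 (1025), Gria4 (1530), Grin2c (1334) and Grm2 (1568), each under 2000. Without the rod, photoreceptors held 3 members, and without H1 they held 12. The rod also held 4 of 12 amacrine markers, Gad1 (9038), Barhl2 (3883), Slc32a1 (3317) and Tfap2c (1241). Of 5 horizontal cell markers it held 2, Onecut1 (1761) and Lhx1 (1055), and of 12 ganglion markers 2, Pou4f1 (1338) and Pou4f3 (1764). It held 1 of 7 glial markers, Clu (246114), and 1 of 8 progenitor markers, Hes1 (1330). Of 8 blood, immune and vascular markers it held 1, Cldn5 (1107), and it held 0 of 6 bipolar and 0 of 4 lens markers. The part of these and of the high median signal of its array in the subunit values was not tested.

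In the test of photoreceptors against the mean of ganglion and amacrine cells, 152 of 7184 genes passed in limma (2.12%), and 0 of the 18 members did. The count of all genes was 44 without J6 and 66 without the rod. At an unadjusted p under 0.05, 2 members were lower in photoreceptors and 0 higher, and 875 genes passed in all (12.2%). The model with gene-wise variances called 0 members and 51 of all genes, with 1 member and 809 genes at an unadjusted p under 0.05. The members' median was -0.71 log2, against -0.57 over all genes.

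Gabbr1 was at -3.30 ± 1.45 (adjusted p = 0.294 in limma), with signals of 23.3, 33.6 and 671 in H1, E1 and the rod. It was detected in 0 of 3 photoreceptors, against 10 of 13 ganglion cells and 5 of 6 amacrine cells. Chrnb2 was at -3.10 ± 1.40 (adjusted p = 0.315 in limma), with 260, 44.5 and 87.4 in photoreceptors. Chrna4 was at -2.26 ± 1.28, Gria2 at -2.10 ± 1.37, Gabrb2 at -1.48 ± 1.04 and Gria1 at -1.45 ± 1.02, and none of these was detected in a photoreceptor by the probe set tested. Others passed 1000 in the rod, at 1023 for Chrna4 and 1833 for Chrnb2. On the photoreceptor side Chrnb4 was at 1.21 ± 1.22 and Chrna6 at 0.83 ± 0.74, followed by Grin2c at 0.23, Glra2 at 0.19 and P2rx3 at 0.13. For Chrna6, Grin2c, Glra2 and P2rx3 the P0 photoreceptor mean was the floor of 7.64, so these values rest on the rod. Its log2 signals of them were 10.05, 10.38, 9.21 and 9.44. Without the rod Chrna6 and Grin2c were not tested. Without J6 Gria1 was at -2.19. Without the rod, which leaves 1 photoreceptor sample, Gabbr1 was at -4.17, Chrnb2 at -3.00 and Chrnb4 at 3.43, and Glra2 and P2rx3 turned to -0.59 and -0.76.

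**Figure D4:**
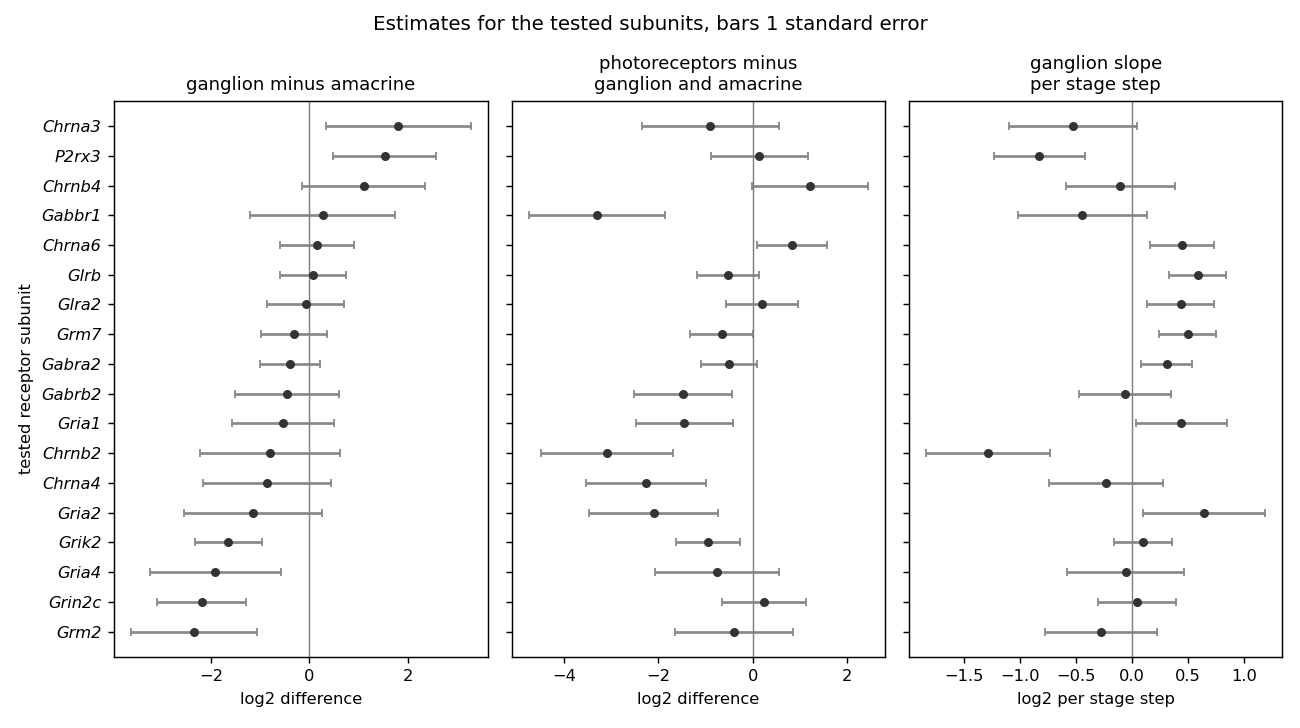
Estimated log2 differences (left and middle) and log2 slope per stage step in ganglion cells (right) for the 18 tested receptor subunits, with bars of 1 standard error from limma and a line at 0. No member passed an adjusted p of 0.05 in any panel, and Gabbr1 and Chrnb2 lie farthest below 0 in the photoreceptor panel.

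Proteins that assemble, anchor or feed these receptors were taken from lists. Of 40 auxiliary and anchoring genes 38 were measured and 22 tested, and 0 passed in limma in any of the 3 tests. At an unadjusted p under 0.05 there were 2, 2 and 1 of them in the ganglion-amacrine, photoreceptor and slope tests, and 4, 2 and 2 in the model with gene-wise variances, which called 0. Among auxiliary subunits of AMPA receptors, Cacng3 was detected in 1 of 13 ganglion cells and 6 of 6 amacrine cells (-3.92 ± 1.19, adjusted p = 0.397 in limma). Cacng4 was detected in 11 of 13 ganglion cells and 0 of 6 amacrine cells (2.33 ± 1.43), and Cacng5 in 9 of 13 and 1 of 6 (2.16 ± 1.37), each with an adjusted p of 0.999 in limma. Cnih2 was found in 9 of 13 and 4 of 6, Shisa7 in 6 of 13 and 2 of 6, Cacng2 in 2 of 13 and 2 of 6, and Cacng7 and Cacng8 in 0 of both. Dlg3, a scaffold of glutamate receptors, was detected in 0 of 13 and 3 of 6 (-3.00 ± 0.95).

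Of 14 genes of transmitter synthesis and transport 11 were measured and 3 tested, and 0 passed in limma in any of the 3 tests. At an unadjusted p under 0.05 all 3 were in the ganglion-amacrine test, by limma and by the model with gene-wise variances, and 0 in the others. Slc17a6, a vesicular glutamate transporter, was detected in 11 of 13 ganglion cells and 0 of 6 amacrine cells (3.48 ± 1.37), and Gad1, which makes GABA, in 0 of 13 and 6 of 6 (-5.52 ± 1.40, adjusted p = 0.0782 in limma). Gad1 was also at 15552 in P0 photoreceptor E1 and 9038 in the rod. These genes served as markers of the cell types, so their direction is not independent evidence. Of 11 further channel subunits outside the symbol rule 10 were measured, and 0 were detected in at least 3 cells.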

How the data were processed

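Single cells were picked from dissociated retinas, and their cDNA was amplified by 35 cycles of PCR and hybridised to Affymetrix mouse arrays, per the labels. The deposited table holds linear intensity values, made by the authors in MAS5 per the submitters' processing notes, with no detection calls. Of 45101 probe sets, 34958 had 1 gene symbol, 932 several and 9211 none. All 57 members were matched to RefSeq gene numbers, and 2 of their probe sets were left out for carrying several symbols. Arrays were scaled to a 2% trimmed mean of 500, floored at 200 and log2 transformed. Genes detected in at least 3 cells, 7184 in all, were tested by lmFit and eBayes (trend) of limma 3.58.1, under R 4.3.3, on means of 9 type-and-stage samples, with Benjamini-Hochberg adjustment at 0.05. The prior degrees of freedom were infinite, so errors follow the trend and not each gene's own spread. Stage was not a term in the comparisons of cell types. The fits were also run on simulated data, with each gene's values shuffled among the cells and known shifts added. No effect shared by the cells of a sample was simulated, so this does not test that part of the design.

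The members and lists were chosen with earlier results of these data known. Named members were the 6 largest tested differences per direction and comparison, and those detected in at least 50% of a type's cells or in every cell of a group of at least 2. Alternatives were other floors, thresholds, scalings, probe set choices and weights, and each cell left out in turn. No arrays were identical, and the highest Pearson correlation among 231 pairs was 0.700. The number of arrays limits the precision.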

Additional observations from a re-analysis of the deposited data

Results flagged for a closer look

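Within the P0 groups, 1 cell lay far from the others for 10 of 33 combinations of tested subunit and group. Chance gives such a cell in about 1 in 20 groups of untied values, but where the other cells are tied at the floor any cell above it stands apart, so the number is not read against that rate. Among the 4 P0 ganglion cells, F1 was highest for Chrna3 (8530), Chrnb2 (1594) and Chrnb4 (8141), which are subunits of nicotinic receptors, and also for Grm2 (200.9), which is close to the floor. Ganglion cell C6 was highest for Grin2c (376.7) and A6 for P2rx3 (253.3), both under the detection threshold. Among the 5 P0 amacrine cells, D1 was highest for Gabra2 (13979) and Grm7 (16969), and F6 for Chrna3 (1596) and Glrb (7385). F1 had the most detected genes of all cells, 4352, while F6 had 4132 and D1 had 2030. The part of these gene numbers in the subunit values was not tested.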

How the results depend on the processing

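No member passed an adjusted p of 0.05 in limma in any of the 3 tests under any of the alternatives run, and over all genes the calls ranged from 0 to 31 for ganglion minus amacrine cells, from 27 to 179 for photoreceptors and from 0 to 2 for the slope. Signs turned for members near 0. In ganglion minus amacrine cells, Chrna6 was at -0.12 with a floor of 100, Gabbr1 at -0.21 weighted by cells and Glrb at -0.45 and Gabbr1 at -0.26 without amacrine cell J6 (also with the rod left out too). With each cell left out in turn, Gabbr1 ranged from -0.29 to 0.58, turning also without E13.5 ganglion cell A3 (-0.05) and amacrine cell G3, and Glrb ranged from -0.45 to 0.26, at -0.06 without amacrine cell A4, D1, G3 or B1. In photoreceptors, Glra2 was at -0.11 and P2rx3 at -0.16 with a floor of 400, at -0.66 and -0.44 after quantile normalization, and at -0.39 and -0.23 weighted by cells. Without the rod and J6 together they were at -0.91 and -0.76, without the rod alone at -0.59 and -0.76. With each cell left out Glra2 ranged from -0.59 to 0.25, at -0.13 without J6, and P2rx3 from -0.76 to 0.28, at -0.06 without E13.5 ganglion cell A3 and -0.01 without D8 of E14.5. For Gabbr1, P0 minus the embryonic mean was 1.68. The causes were not tested.

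In P0 ganglion minus P0 amacrine cells, members higher by 2 or more numbered 3 with a floor of 100 or with values as deposited, 0 with a floor of 400 or the mean over all probe sets, and 2 after quantile normalization or with medians over cells. Those lower numbered 1 with a floor of 400 or the mean over probe sets and 0 with values as deposited. With each cell left out they ranged from 1 to 3 higher and from 1 to 3 lower. Photoreceptors held 26 members at a threshold of 500 and 6 at 2000, and 3 to 14 with a cell left out. Members found in P0 and no embryonic ganglion cell numbered 5 at a threshold of 2000, and 6 to 10 with a cell left out. The linear-mean probe set and the leaving out of cells from the detection counts were chosen after seeing the data. No paired analysis was possible because the labels name no animal or litter and give no replicate number shared by the groups. Signals under 1000, and differences against a group at the floor, are limited by the arrays' sensitivity.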
